A study of Mus musculus with 12 samples.

Results

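Ribosome assembly factors are the proteins that turn ribosomal RNA precursors and ribosomal proteins into the 2 subunits of the ribosome, mostly in the nucleolus. The 48 genes described here were chosen by symbol from a list of such factors, and all 48 were present among the 51826 gene identifiers counted in the forelimb and the 55401 counted in the cultures. All 48 also passed the filter on low counts in both data sets, alongside 19987 forelimb and 14030 culture genes in all. Total RNA was sequenced from mouse embryonic forelimbs and from bone marrow cultures in 12 libraries, to follow what deletion of Impdh2 does to limb development and osteoclast formation. The forelimbs, at embryonic day E12.5, were Impdh2 wild type (WT) or lacked Impdh2 where Prx drove Cre expression, which is in mesenchymal progenitors of the limb (Prx-cKO), so that muscle, vessel, blood and skin cells of the same limb are not targeted. The cultures came from marrow of WT mice or of mice without Impdh2 in myeloid cells (LysM-cKO, Cre driven by LysM), a lineage that gives rise to macrophages and osteoclasts. The protocols in the labels state that marrow was first cultured for 3 days with a conditioned medium equivalent to 20 ng/ml M-CSF, the growth factor of macrophages, reseeded and stimulated with 40 ng/ml RANKL, the cytokine that induces osteoclasts. Each genotype has cultures titled R40D3 and R0D3, which the labels do not spell out and which are used here as names. Each of the 6 groups (forelimb WT, forelimb Prx-cKO, and WT and LysM-cKO cultures at R40D3 and at R0D3) held 2 libraries. The labels do not say that these came from separate animals, so p-values measure the spread between these libraries only, which may be technical.

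Ribosome assembly begins while RNA polymerase I is still transcribing. The small-subunit processome forms on the new transcript, small nucleolar ribonucleoproteins (snoRNPs) of the box C/D and H/ACA classes modify its bases and riboses, and helicases, GTPases and nucleases then remodel and trim the particles before export to the cytoplasm. Impdh2 encodes an IMP dehydrogenase, the enzyme at the rate-limiting step of guanine nucleotide synthesis, and GTP is both a building block of ribosomal RNA and the ligand of several assembly factors. Among these are Gnl2, Gtpbp4 and the cytoplasmic Lsg1 of the large subunit, Bms1 of the small subunit, and Gnl3 (nucleostemin), whose place in the nucleolus depends on bound GTP. Lsg1 acts in the cytoplasm, so the label "nucleolar" does not cover every gene of the list.

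Impdh2 messenger RNA was lower in the knockout libraries of all 3 comparisons, and passed the test in both cultures. In CPM (normalised read counts relative to the size of each library) forelimb WT held 260 and 272 and Prx-cKO 170 and 199, without passing (log2 fold change −0.53 with SE 0.16, edgeR adjusted p 0.443). The R40D3 cultures held 25.7 and 27.7 CPM in WT and 7.72 and 8.38 CPM in LysM-cKO (log2 −1.73 with SE 0.15, edgeR adjusted p 0.0386). The R0D3 cultures held 22.3 and 28.2 CPM in WT and 7.36 and 7.03 CPM in LysM-cKO (log2 −1.81 with SE 0.16, edgeR adjusted p 0.0324). Total counts ran from 28892215 to 69466572 per forelimb library and from 16009146 to 19221865 per culture library. The lowest count of any assembly factor in any library was 269 in the forelimb and 112 in the cultures. Set against counting error, the squared difference between the replicates of an assembly factor (chi-square with 1 degree of freedom) had a median of 13.3 to 46.3 in the 2 forelimb groups but only 0.955 to 1.67 in the 4 culture groups, where 19 to 26 of the 48 genes were under 1. The mean over the 48 genes was 3.62 to 4.68 in the culture groups, where counting error alone would give 1. Counting error is thus a part of the spread of assembly factors in the cultures, and replicates differed by more than it in the mean. Osteoclast markers summed to between 12620 and 37520 CPM in the 4 R40D3 libraries and to between 237 and 367 CPM in the 4 R0D3 libraries, in each of which Calcr was at 0, although both carry the label osteoclast. Macrophage markers summed to at least 17050 CPM in each of the 8 culture libraries.

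The assembly factors were expressed in every group. Their median level was 68.9 CPM in forelimb WT and 85.7 CPM in forelimb Prx-cKO, and lay between 27.3 and 32.3 CPM in the 4 culture groups, which were normalised separately from the forelimb. Per kilobase of exon, Npm1 (nucleophosmin, a nucleolar chaperone) had the highest level in all 6 groups, at 361 and 489 CPM per kilobase in forelimb WT and Prx-cKO and at 86.2 to 102 CPM per kilobase in the cultures. Nhp2 (an H/ACA snoRNP protein) and Imp3 (a processome protein) came next in the forelimb, at 79.4 and 74.1 CPM per kilobase in WT. The lowest was Rrp9 (a processome protein) in the forelimb, at 2.72 and 2.61 CPM per kilobase in WT and Prx-cKO. In the cultures it was Rrp1b, at 1.35 to 1.59 CPM per kilobase in 3 groups, or Wdr12, at 1.30 CPM per kilobase in R0D3 LysM-cKO. Rrp1 (a large-subunit factor) stood at 137 to 158 CPM in all 8 cultures, where its rank per kilobase was 2 or 3, against 14.9 to 41.8 CPM in the forelimb libraries. Reads of Npm1, which has processed pseudogenes, and of Tsr1, of whose exons 32.3% overlap the opposite-strand gene Srr, may have been divided between genes, since the counting tool and its use of strand are not given in the sources used here.

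The starts of some of the genes that the results below turn on are printed from RefSeq (GRCm38.p6), 150 bases before the start and 30 from it. Each gene printed holds a marked match, which is not so for every gene that the results turn on. Nop2, Nolc1, Nop10 and Gtpbp4 rose in R40D3 over R0D3 cultures of WT mice, and Nhp2 had the largest estimate in the forelimb. Capitals mark matches to CACGTG, the E-box, or to its relative CACGCG, on either strand, where CACGCG reads CGCGTG.
Nop2 (chr6:125131733-125131912, plus strand): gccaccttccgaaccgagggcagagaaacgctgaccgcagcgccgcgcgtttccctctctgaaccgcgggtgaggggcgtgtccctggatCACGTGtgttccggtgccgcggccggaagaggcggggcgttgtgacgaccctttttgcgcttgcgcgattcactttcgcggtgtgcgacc
Nolc1 (chr19:46075697-46075876, plus strand): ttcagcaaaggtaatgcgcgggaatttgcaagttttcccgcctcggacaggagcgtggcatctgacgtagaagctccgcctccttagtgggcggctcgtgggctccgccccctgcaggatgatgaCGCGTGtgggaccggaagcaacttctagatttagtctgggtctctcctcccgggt
Nop10 (chr2:112261776-112261955, plus strand): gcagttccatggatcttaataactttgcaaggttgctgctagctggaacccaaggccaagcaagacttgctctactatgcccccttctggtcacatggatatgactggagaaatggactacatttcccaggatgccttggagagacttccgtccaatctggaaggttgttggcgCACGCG
Gtpbp4 (chr13:8995983-8996162, minus strand): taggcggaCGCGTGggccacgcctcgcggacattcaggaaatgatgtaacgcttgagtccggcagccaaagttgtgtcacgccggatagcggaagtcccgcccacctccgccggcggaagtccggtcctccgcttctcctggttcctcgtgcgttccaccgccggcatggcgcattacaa
Nhp2 (chr11:51619623-51619802, plus strand): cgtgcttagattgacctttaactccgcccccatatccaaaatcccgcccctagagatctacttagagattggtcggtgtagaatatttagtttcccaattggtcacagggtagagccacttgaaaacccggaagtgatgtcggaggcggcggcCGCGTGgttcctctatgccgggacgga
In RefSeq windows of 300 bases (250 before and 50 after the start), which were found for 43 of the 48 genes (none for Gnl2, Rrp12, Npm1, Bop1 and Fbl), CACGTG was present in 10 genes, or 23.3%. Over all genes with windows the share was 8.09%. The 10 were Pes1, Utp4, Wdr43, Utp18, Imp4, Utp20, Ltv1, Pno1, Tsr1 and Nop2, and in Nop2 the match began 60 bases before the start. CACGCG was in 13 of the 43 genes (30.2%, against 10.5% of all genes), among them Nop10, Nolc1, Gtpbp4, Lsg1 and Nhp2. Neither form was in the windows of Wdr75 and Nat10, called in WT cultures, or of Gnl3, called in LysM-cKO cultures. Imp3, with one of the smallest p in the forelimb, also had neither. The GC box letters GGGCGG, which can share an end base with these motifs, were in 28 (65.1%, against 38.2%) and TATAAA in 2, Dkc1 and Pes1 (4.65%, against 15.7%). The windows of the assembly factors also differed in base composition, with a median GC content of 57.8% and 20 CpG dinucleotides against 52.7% and 7 over all windows, and both E-box forms contain CpG. These matches are letters in a window and were not tested against expression.

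The comparisons of Prx-cKO with WT forelimb and of LysM-cKO with WT cultures ask how the assembly factors respond when the cells lose this enzyme. In the forelimb the estimates of 45 of the 48 genes were above 0, while in the R40D3 cultures 39 were below 0. In R0D3 cultures 21 were above 0 and 27 below. No single assembly factor passed the threshold in any knockout comparison. Between cultures titled R40D3 and R0D3, 9 of the 48 genes were called higher at R40D3 in WT (18.8%, against 11.4% of all genes) and 3 in LysM-cKO (6.25%, against 6.99%), where the share was near that of all genes.

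**Figure D1:**
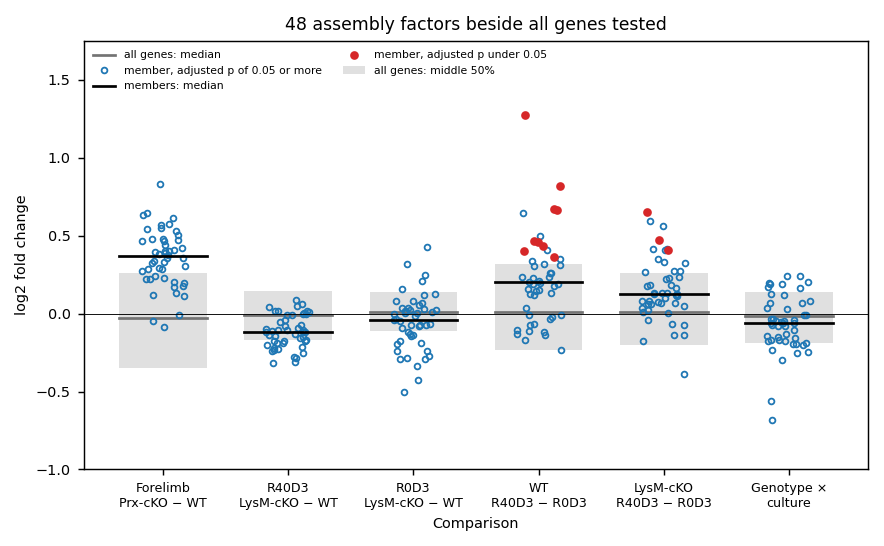
Log2 fold change (vertical axis) of the 48 assembly factors in each comparison (horizontal axis), with points spread sideways at random, black lines at their medians, grey bars over the middle 50% of all genes tested and grey lines at the median of all genes. The black line lies at 0.366 in the forelimb, −0.118 at R40D3 and 0.2 in WT R40D3 minus R0D3. Filled red points are the 9 and 3 genes with an adjusted p under 0.05.

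In the forelimb the median log2 fold change of the 48 genes was 0.366, against −0.0296 over all genes tested. Values above 0 were estimated for 45 of them (93.8%, against 47.2% of all genes), and the count lay between 43 and 47 under every alternative run. The summed level of the 48 genes was 4957 and 4964 CPM in the WT libraries and 6485 and 6491 CPM in the Prx-cKO libraries, with no overlap. Npm1 and Ncl weigh most in this sum, with means of 962 and 633 CPM in WT. The closeness of the sums does not hold for single genes, since Npm1 had a mean of 1304 CPM with an SD of 281 CPM in Prx-cKO. None passed the adjusted threshold in edgeR's quasi-likelihood test, where 0.0% of all genes passed, and none passed in DESeq2. At an unadjusted p under 0.05, 13 of the 48 were higher and 0 lower, and over all genes 5.87% were higher and 4.61% lower. Both Prx-cKO libraries lay above both WT libraries for 37 genes (77.1%, against 22.2% of all genes) and below them for 0 (against 21.0%). Taking each Prx-cKO library against each WT library (4 pairs), the median difference lay between 0.31 and 0.44 on the log2 scale. The 3 genes with an estimate below 0 were Ddx10 (−0.08), Rrp9 (−0.05) and Rrp1 (−0.01).

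**Figure D2:**
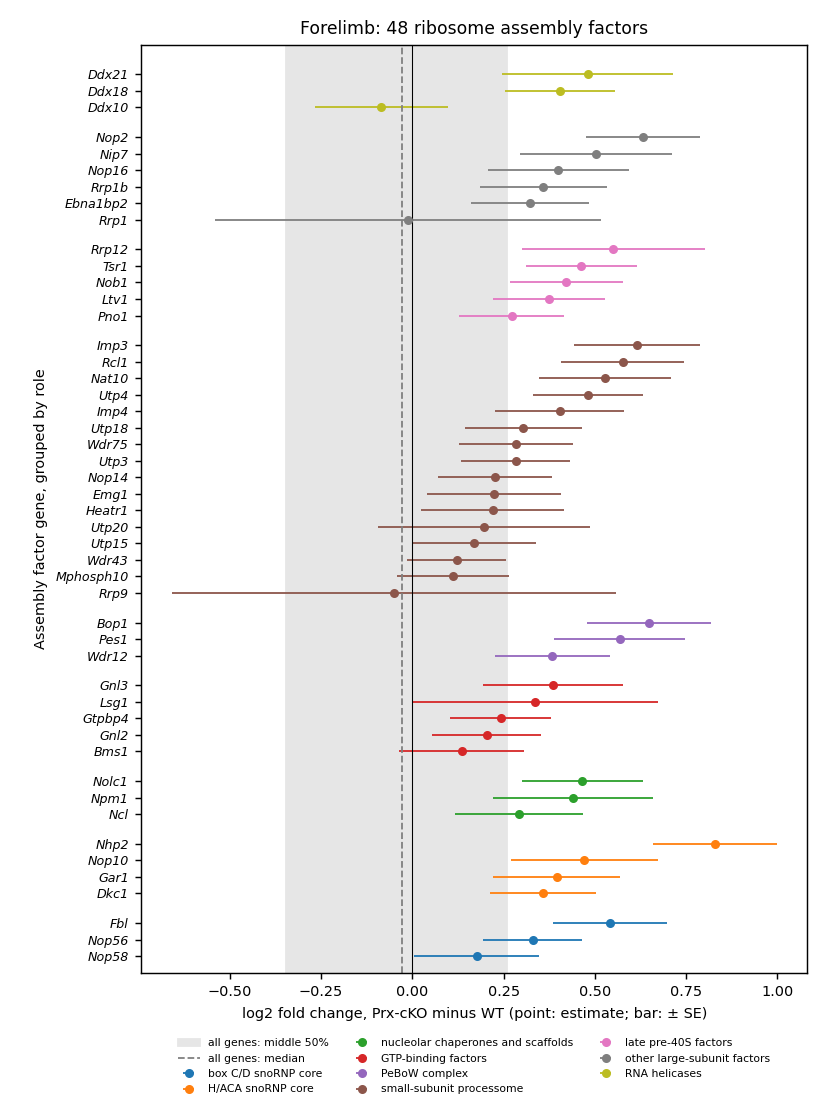
Log2 fold change in the forelimb, Prx-cKO minus WT (horizontal axis; points with bars of ± SE), for each assembly factor gene (vertical axis), coloured by role. The dashed line and grey band give the median and middle 50% of all genes tested. Points of 45 genes lie to the right of 0, and the widest bars belong to Rrp9, Rrp1 and Lsg1.

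The snoRNPs are the particles that carry out ribose methylation and pseudouridine formation in ribosomal RNA. Of their proteins all 7 had estimates above 0 in the forelimb and 0 passed the adjusted test. Nhp2 of the H/ACA class had the smallest p of the 48. Its levels were 96.0 and 85.8 CPM in WT and 145 and 177 CPM in Prx-cKO. The Prx-cKO libraries were thus both higher (log2 fold change 0.83, SE 0.17, edgeR p 0.00408, adjusted p 0.382, and 0.058 to 1.00 over the alternatives). Fbl (fibrillarin), the methyltransferase of the box C/D class, was at 195 and 165 CPM in WT and 255 and 268 CPM in Prx-cKO, also without overlap. On the log2 scale the change was 0.54 with an SE of 0.16 and an edgeR adjusted p of 0.441. The H/ACA class had a median of 0.433 over its 4 proteins and its smallest estimate was 0.36 (Dkc1, the pseudouridine synthase), and the smallest in the box C/D class was 0.18 (Nop58).

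Chaperones, scaffolds and large-subunit factors lay on the same side. The estimates of Ncl (nucleolin), Npm1 and Nolc1, which bind ribosomal RNA precursors or snoRNPs, were 0.29, 0.44 and 0.47, with no overlap between genotypes for any of the 3. A rise without overlap was found for 22.2% of all genes. In the PeBoW complex, which large-subunit rRNA processing needs, Bop1 was at 90.0 and 102 CPM in WT and 136 and 165 CPM in Prx-cKO. Both knockout libraries were higher (log2 fold change 0.65, SE 0.17, edgeR adjusted p 0.424). Its partners Pes1 and Wdr12 had 0.57 and 0.38, again without overlap. Nop2, a cytosine methyltransferase of large-subunit rRNA, was at 84.2 and 88.9 CPM in WT and 123 and 145 CPM in Prx-cKO. Its groups did not overlap (log2 fold change 0.63, SE 0.16, edgeR adjusted p 0.415). Of the other large-subunit factors Nip7, Nop16, Rrp1b and Ebna1bp2 were between 0.32 and 0.50, and Rrp1 at −0.01.

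Estimates of small-subunit factors ranged from −0.05 for Rrp9 to 0.62 for Imp3. Of the 16 processome proteins 15 were above 0 with a median of 0.255, and 10 were higher without overlap. Of all genes tested in the forelimb, 22.2% were higher without overlap. Imp3 was at 75.7 and 61.1 CPM in WT and 100.2 and 109 CPM in Prx-cKO (log2 fold change 0.62, SE 0.17, edgeR adjusted p 0.441), both knockout libraries being higher. Rcl1, Nat10 (the rRNA acetyltransferase) and Utp4 followed with 0.58, 0.53 and 0.48. All 5 late small-subunit factors had groups without overlap, from 0.27 for Pno1 to 0.55 for Rrp12, which escorts precursors out of the nucleus. Among the RNA helicases Ddx21 and Ddx18 were at 0.48 and 0.40. Ddx10 was the lowest of the 48, at 32.0 and 39.6 CPM in WT and 34.4 and 33.2 CPM in Prx-cKO, where the Prx-cKO values lay inside the WT range (log2 fold change −0.08, SE 0.18, edgeR adjusted p 0.896).

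The 5 GTP-binding factors had forelimb estimates above 0, with a median of 0.242. Of these, 3 of the 5 were higher without overlap, against 22.2% of all genes. Gnl2 was at 68.7 and 69.6 CPM in WT and 84.6 and 74.8 CPM in Prx-cKO (log2 fold change 0.20, SE 0.15, edgeR adjusted p 0.673). Gnl3 was at 80.2 and 61.4 CPM in WT and 98.8 and 86.1 CPM in Prx-cKO (0.39, SE 0.19, edgeR adjusted p 0.545). Gtpbp4 was at 76.4 CPM in both WT libraries and at 89.8 and 91.0 CPM in Prx-cKO (0.24, SE 0.14, edgeR adjusted p 0.591). In these 3 both knockout libraries lay above both WT libraries, although replicates of Gnl3 differed by nearly as much as the genotypes. Bms1 was at 83.4 and 105 CPM in WT and 101 and 106 CPM in Prx-cKO (0.14, SE 0.17, edgeR adjusted p 0.820), and its groups overlapped. Lsg1 was at 31.4 and 54.4 CPM in WT and 43.1 and 65.2 CPM in Prx-cKO (0.34, SE 0.34, edgeR adjusted p 0.766), also with overlap. Without WT replicate 1 the estimates of Bms1 and Lsg1 turned to −0.06 and −0.04.

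**Figure D3:**
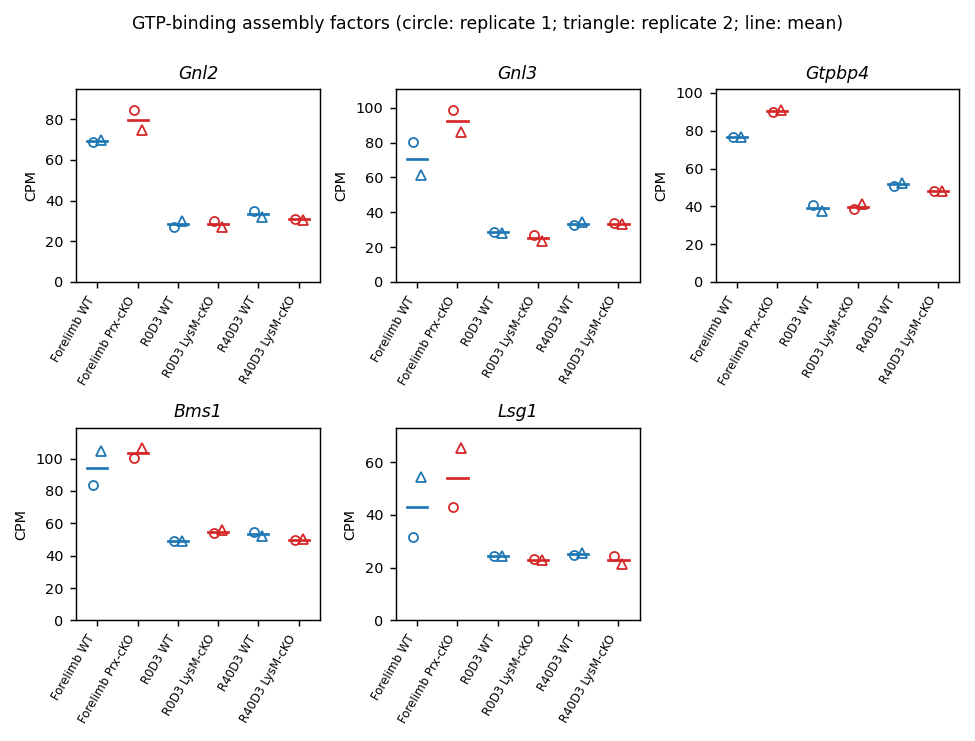
CPM (vertical axes, from 0) of the 5 GTP-binding factors in each of the 12 libraries, by group (horizontal axes), with WT in blue and knockout in red. Circles are replicate 1, triangles replicate 2 and lines the mean of 2 libraries; forelimb and cultures were normalised separately. Lsg1 spreads from 31.4 to 54.4 CPM within forelimb WT and from 21.4 to 25.5 CPM over all 8 cultures.

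Several assembly factors varied between forelimb replicates in the same way in both genotypes. Rrp1 was at 41.8 and 14.9 CPM in WT replicates 1 and 2 and at 34.9 and 21.3 CPM in Prx-cKO replicates 1 and 2. For Rrp9 the values were 12.2 and 3.75 CPM in WT and 9.46 and 5.85 CPM in Prx-cKO. Replicate 1 was thus the higher in both genotypes for these genes, and replicate 2 for Lsg1 and Utp20 (47.4 and 80.5 CPM in WT, 64.9 and 81.7 CPM in Prx-cKO). Across the 48 genes the difference between replicates 1 and 2 in WT correlated with that in Prx-cKO at r = 0.726, a correlation across genes of the same 4 libraries, against r = 0.261 across all genes tested. Rrp9 (1.69 in WT and 0.689 in Prx-cKO, log2) and Rrp1 (1.49 and 0.71) had the largest differences, and r without them was not computed. Some genes, such as Nip7 and Nop16, went opposite ways in the 2 genotypes.

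Other genes of the pathway had estimates on the same side in the forelimb. Of 98 further ribosome assembly factors tested, 87 were above 0 with a median of 0.285, and 0 were called. Of 11 RNA polymerase I genes 9 were above 0 (median 0.23), of 77 cytosolic ribosomal protein genes 75 (median 0.352) and of 20 cell division genes 18 (median 0.305), with 0 called in each list. Summed levels of some cell type markers differed between the same libraries, and those of others overlapped. Skeletal muscle markers were at 344 to 353 CPM in WT and 463 to 999 CPM in Prx-cKO, with all 8 higher, and endothelial markers were 160 to 175 CPM and 230 to 234 CPM, with all 8 higher. Limb mesenchyme markers summed to 1611 to 1750 CPM in WT and to 1292 to 1372 CPM in Prx-cKO, with 6 of 10 lower. Stromal fibroblast markers summed to 1910 to 1913 CPM in WT and 1653 to 1720 CPM in Prx-cKO, with 5 of 8 lower. Erythroid markers overlapped, at 3837 to 5226 CPM in WT and 4052 to 4731 CPM in Prx-cKO, with 5 of 10 higher. Surface ectoderm markers also overlapped, at 623 to 774 CPM in WT and 755 to 849 CPM in Prx-cKO, with 6 of 8 higher. Macrophage markers summed to 85.1 CPM in both WT libraries and to 81.7 and 71.2 CPM in Prx-cKO, although 5 of the 7 tested had estimates above 0 with a median of 1.01, 4 of them at an unadjusted p under 0.05. The part of these cell types in the assembly factor levels was not tested, and in whole-tissue RNA a change in the share of a cell type cannot be told apart from a change in the RNA per cell.

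In R40D3 cultures the median log2 fold change of LysM-cKO over WT was −0.118, against −0.00759 over all genes tested, and 39 of the 48 genes were below 0 (81.2%, against 51.4%). None was called (0.0143% of all genes were), DESeq2 called none, and at an unadjusted p under 0.05 there were 0 higher and 1 lower, Nop2 (4.0% and 3.47% of all genes). LysM-cKO libraries were below WT without overlap for 21 genes (43.8%, against 18.9% of all genes) and above for 3 (6.25%, against 19.7%). The summed level was 2326 and 2346 CPM in WT and 2219 and 2230 CPM in LysM-cKO, a gap without overlap but far smaller than in the forelimb. Ncl and Npm1 again weigh most in it, with means of 318 and 251 CPM in WT.

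Nop2 had the smallest p at R40D3. WT held 43.5 and 43.7 CPM and LysM-cKO 35.1 and 34.8 CPM, 2 tight and separate pairs (log2 fold change −0.32, SE 0.11, edgeR p 0.0192, adjusted p 0.648). Nip7, another large-subunit factor, was at 25.2 and 26.9 CPM in WT and 23.0 CPM in both LysM-cKO libraries (−0.18, SE 0.10, edgeR adjusted p 0.667). Processome genes came next. Wdr75, which links transcription of the precursor to its processing, was at 27.2 and 30.5 CPM in WT and 24.2 and 24.5 CPM in LysM-cKO (−0.24, SE 0.11, edgeR adjusted p 0.648). Utp4 was at 22.2 and 27.0 CPM in WT and 19.8 and 20.8 CPM in LysM-cKO (−0.28, SE 0.14, edgeR adjusted p 0.648). Rcl1, at 9.73 and 9.41 CPM in WT and 8.46 and 6.90 CPM in LysM-cKO, had −0.31 (SE 0.16, edgeR adjusted p 0.656). In each of these 5 both knockout libraries were the lower ones, but they were picked for their small p, so this adds no support. Utp3 had the highest estimate, with 52.6 and 54.2 CPM in WT and 57.5 and 55.8 CPM in LysM-cKO (0.09, SE 0.08, edgeR adjusted p 0.775).

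By role at R40D3, all 7 snoRNP proteins, all 3 PeBoW proteins and all 5 late small-subunit factors were below 0, with medians of −0.114 (box C/D), −0.217 (H/ACA), −0.105 and −0.145. The processome genes were divided, 11 below and 5 above 0. The 5 GTP-binding factors had estimates below 0 with a median of −0.103, none of which passed. Gnl2 was at 34.9 and 32.2 CPM in WT and 31.2 and 30.7 CPM in LysM-cKO (−0.12, SE 0.11, edgeR adjusted p 0.760). Gtpbp4 was at 50.9 and 52.4 CPM in WT and 48.1 CPM in both LysM-cKO libraries (−0.10, SE 0.09, edgeR adjusted p 0.751). Bms1 was at 54.7 and 51.9 CPM in WT and 49.7 and 50.03 CPM in LysM-cKO (−0.10, SE 0.08, edgeR adjusted p 0.747). In these genes, and in Lsg1 at 24.7 and 25.5 CPM in WT and 24.4 and 21.4 CPM in LysM-cKO (−0.13, SE 0.11, edgeR adjusted p 0.747), the knockout libraries were lower without overlap. The same was found for 18.9% of all genes. Gnl3 was at 32.6 and 34.4 CPM in WT and 33.6 and 33.1 CPM in LysM-cKO, inside the WT range (−0.01, SE 0.10, edgeR adjusted p 0.988).

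Among other genes at R40D3, 70 of 99 further assembly factors, 8 of 11 RNA polymerase I genes and 70 of 77 cytosolic ribosomal protein genes were below 0, with medians of −0.0358, −0.155 and −0.0844 and 0 called. Cell division genes lay the other way, 18 of 20 above 0 with a median of 0.462. They summed to 454 and 443.5 CPM in WT and to 483 and 780 CPM in LysM-cKO, so that only replicate 2 of the knockout lay far above WT. All 8 osteoclast markers were below 0, with a summed level of 25360 to 37520 CPM in WT and 12620 to 23870 CPM in LysM-cKO. Stromal fibroblast markers summed to 1484 to 1562 CPM in WT and 415 to 1407 CPM in LysM-cKO, where Dcn and Lum were at 0 in replicate 2. Macrophage markers summed to 25340 to 26350 CPM in WT and 17050 to 18110 CPM in LysM-cKO, with 5 of 8 below 0. Their median log2 fold change was −0.149, with a range from −0.768 to 0.348. Lyz2, the LysM gene that drives Cre, is among these markers, and the sum without it was not computed. The lower sum thus does not by itself show fewer macrophages. How far osteoclast number, macrophages or stromal cells enter the assembly factor levels was not tested.

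In R0D3 cultures the estimates were divided, while groups without overlap were more often lower in LysM-cKO. The median was −0.0404, against 0.00839 over all genes, with 21 genes above and 27 below 0 (56.2% below, against 48.1%). None was called (0.0143% of all genes were) in edgeR or DESeq2, and at an unadjusted p under 0.05 there were 1 higher, Utp20, and 2 lower, Rcl1 and Ddx18 (3.02% and 1.4% of all genes). Knockout libraries lay above WT for 7 genes (14.6%, against 17.5%) and below for 15 (31.2%, against 14.8%). Without R0D3 WT replicate 2 the median turned to 0.0215.

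Rcl1 had the smallest p at R0D3. Both WT libraries held 10.5 CPM and the LysM-cKO libraries 7.24 and 7.52 CPM (log2 fold change −0.50, SE 0.16, edgeR p 0.0137, adjusted p 0.997). It was thus lower in LysM-cKO at both culture titles and higher in Prx-cKO forelimb, and passed in none. Utp20 was at 40.3 and 36.3 CPM in WT and 43.3 and 52.1 CPM in LysM-cKO (0.32, SE 0.12, edgeR adjusted p 0.997). Ddx18 was at 35.2 and 37.6 CPM in WT and 29.9 and 31.8 CPM in LysM-cKO (−0.24, SE 0.10, edgeR adjusted p 0.997). Imp3 was at 28.6 and 33.9 CPM in WT and 25.1 and 26.5 CPM in LysM-cKO (−0.28, SE 0.12, edgeR adjusted p 0.997). Nop16 was at 14.3 and 19.8 CPM in WT and 11.8 and 13.6 CPM in LysM-cKO (−0.43, SE 0.19, edgeR adjusted p 0.997), and its replicates spread widely. Rrp12 had the highest estimate, at 8.85 and 9.76 CPM in WT and 11.4 and 13.6 CPM in LysM-cKO (0.43, SE 0.19, edgeR adjusted p 0.997). Groups did not overlap in any of these 6, but they were picked for a small p or the highest estimate, so this adds no support.

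The GTP-binding factors were on both sides of 0 at R0D3, with a median of −0.0129. Gnl3 was at 28.8 and 28.0 CPM in WT and 26.8 and 23.5 CPM in LysM-cKO (−0.18, SE 0.10, edgeR adjusted p 0.997), and Lsg1 at 24.5 CPM in both WT libraries and 23.1 and 22.7 CPM in LysM-cKO (−0.09, SE 0.11, edgeR adjusted p 0.997), both lower without overlap. Bms1 was at 49.2 and 49.1 CPM in WT and 53.9 and 55.8 CPM in LysM-cKO, higher without overlap (0.16, SE 0.08, edgeR adjusted p 0.997). Gnl2 was at 27.2 and 29.97 CPM in WT and 29.8 and 26.9 CPM in LysM-cKO (−0.01, SE 0.11, edgeR adjusted p 0.999), and Gtpbp4 at 40.7 and 37.5 CPM in WT and 38.6 and 41.0 CPM in LysM-cKO (0.03, SE 0.09, edgeR adjusted p 0.997), where the groups overlapped. Beside them, all 77 cytosolic ribosomal protein genes were below 0 with a median of −0.205 and all 20 cell division genes above 0 with a median of 0.907, with 0 called in either list. The cell division genes summed to 588 and 782 CPM in WT and to 722 and 1517 CPM in LysM-cKO, so that replicate 1 of the knockout lay inside the WT range and replicate 2 far above it, and only 2 of the 20 had groups without overlap. Macrophage markers summed to 36250 to 41640 CPM in WT and to 21420 to 22820 CPM in LysM-cKO. Their median log2 fold change was only −0.0662, with 3 of 8 higher and a range from −1.02 to 0.312. Lyz2 is among them and the sum without it was not computed, so the lower sum does not by itself show fewer macrophages here either. Stromal fibroblast markers summed to 1169 to 1348 CPM in WT and to 1531 and 488 CPM in LysM-cKO replicates 1 and 2. The part of macrophages or stromal cells in these values was not tested.

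The comparison of R40D3 with R0D3 shows how assembly factor levels differ between the culture titles within a genotype. In WT, 9 of the 48 genes rose and 0 fell in edgeR's quasi-likelihood test, which is 18.8% higher, against 11.4% of all genes called higher and 5.52% lower. Rrp12 rose most, 2.42-fold, followed by Nop10, Nolc1 and Nop2 at 1.77-, 1.59- and 1.58-fold. Same-numbered WT culture libraries deviated together over all genes (r = 0.465), but less so over the 48 genes (r = 0.222). With the replicate number as a block 14 rose (29.2%, against 16.7% of all genes), the same 9 and Gar1, Nhp2, Heatr1, Utp4 and Ltv1. The count rested on both replicates. Without either R0D3 WT library, or without R40D3 WT replicate 2, only Rrp12 was called, and without R40D3 WT replicate 1 Rrp12, Nop10 and Nop2 were. DESeq2 called 6, of which 5 were among the 9 (Nop10, Nolc1, Rrp12, Nop2 and Ddx21) and the sixth was Nhp2, so that Gtpbp4, Wdr75, Nat10 and Nip7 did not pass there. The median of the 48 genes was 0.200, against 0.00981 over all genes, and 35 were above 0 (72.9%, against 51.2%). R40D3 libraries lay above R0D3 for 31 genes (64.6%, against 32.9%) and below for 7 (14.6%, against 29.2%).

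**Figure D4:**
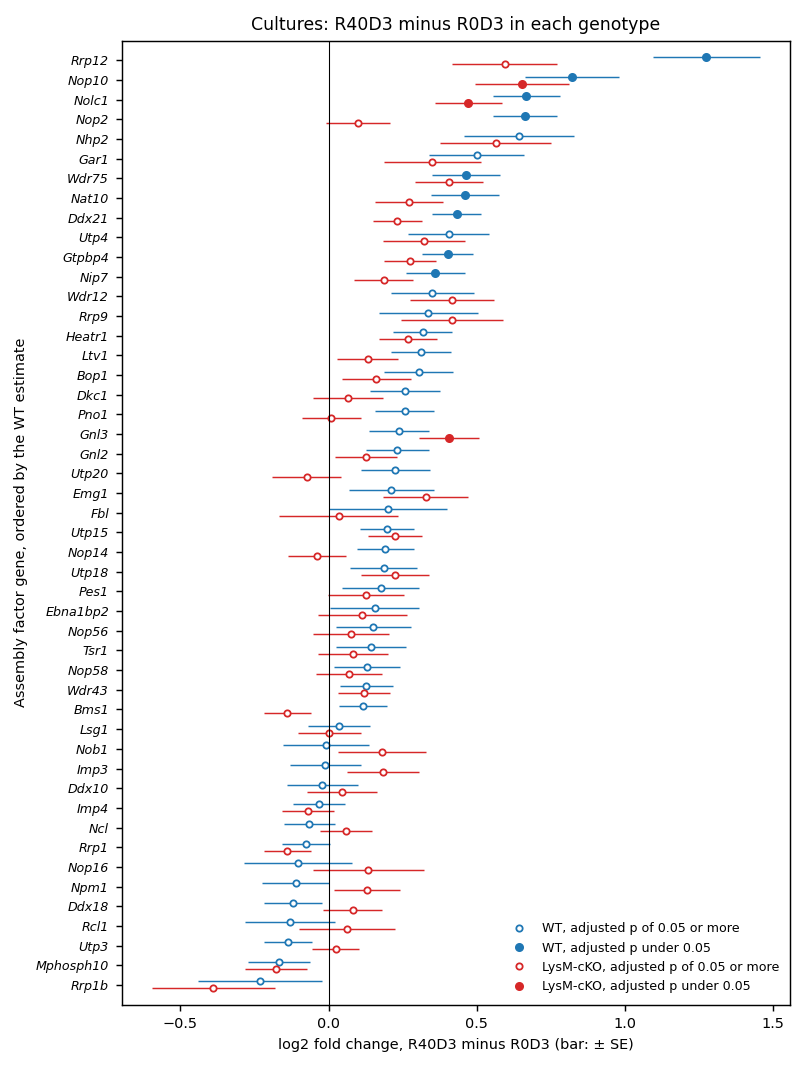
Log2 fold change of R40D3 minus R0D3 (horizontal axis; bars are ± SE) for each assembly factor (vertical axis) in WT (blue) and LysM-cKO (red) cultures, with filled points at an adjusted p under 0.05. Rrp12 stands at 1.28 in WT and 0.60 in LysM-cKO, and Nop2 at 0.66 in WT with its LysM-cKO point near 0.1.

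Rrp12 was at 8.85 and 9.76 CPM in R0D3 WT and at 23.4 and 21.7 CPM in R40D3 WT, more than the replicates of either group spread (log2 fold change 1.28, SE 0.18, edgeR adjusted p 0.00396). This call held under every alternative run, with adjusted p up to 0.0459. Nop2 was at 27.0 and 28.1 CPM at R0D3 and 43.5 and 43.7 CPM at R40D3 (0.66, SE 0.11, edgeR adjusted p 0.00681). Nolc1, a snoRNP chaperone, was at 35.4 and 35.7 CPM at R0D3 and 58.5 and 54.5 CPM at R40D3 (0.67, SE 0.11, edgeR adjusted p 0.00753). Nop10, the smallest H/ACA protein, was at 28.4 and 30.6 CPM at R0D3 and 46.4 and 57.8 CPM at R40D3, with replicates that spread more (0.82, SE 0.16, edgeR adjusted p 0.0125). The helicase Ddx21 was at 89.7 and 83.2 CPM at R0D3 and 116 and 118 CPM at R40D3 (0.43, SE 0.08, edgeR adjusted p 0.0117). Of the remaining calls Wdr75 rose by 0.46, Nat10 by 0.46 and Nip7 by 0.36 on the log2 scale (edgeR adjusted p 0.0306, 0.0312 and 0.0448). The lowest estimate was that of Rrp1b, at 10.8 and 13.6 CPM at R0D3 and 11.9 and 8.80 CPM at R40D3, where the groups overlapped (−0.23, SE 0.21, edgeR adjusted p 0.525).

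Of the GTP-binding factors Gtpbp4 rose in WT, from 40.7 and 37.5 CPM at R0D3 to 50.9 and 52.4 CPM at R40D3 (0.40, SE 0.09, edgeR adjusted p 0.0198). In DESeq2 its adjusted p was 0.0582, and over all alternatives it lay between 0.0067 and 0.169. The other 4 did not pass, although R40D3 libraries were above R0D3 libraries in each, as they were for 32.9% of all genes. Gnl2 was at 27.2 and 29.97 CPM at R0D3 and 34.9 and 32.2 CPM at R40D3 (0.23, SE 0.11, edgeR adjusted p 0.189). Gnl3 was at 28.8 and 28.0 CPM and then 32.6 and 34.4 CPM (0.24, SE 0.10, edgeR adjusted p 0.164). Bms1 was at 49.2 and 49.1 CPM and then 54.7 and 51.9 CPM (0.12, SE 0.08, edgeR adjusted p 0.386). Lsg1 was nearly level, at 24.5 CPM in both R0D3 libraries and 24.7 and 25.5 CPM at R40D3 (0.04, SE 0.11, edgeR adjusted p 0.862).

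By role, H/ACA proteins had the highest WT median, 0.572, with 4 of 4 above 0 and Nop10 called. PeBoW (median 0.304), late small-subunit factors (0.258, Rrp12 called) and GTP-binding factors (0.232, Gtpbp4 called) followed. The box C/D proteins were at 0.13 to 0.20 with 0 called, and Ncl and Npm1 at −0.06 and −0.11. Of the 16 processome genes 11 were above 0 and 2, Wdr75 and Nat10, were called.

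In LysM-cKO cultures 3 of the 48 genes rose from R0D3 to R40D3 and 0 fell, which is 6.25% higher, against 6.99% of all genes called higher and 3.15% lower, so the share was near the background. They were Nolc1, Nop10 and Gnl3. With the replicate block 9 rose (18.8%, against 13.0% of all genes), adding Nhp2, Gtpbp4, Heatr1, Wdr75, Emg1 and Rrp12. With only the 4 LysM-cKO libraries in the fit, or without either R0D3 LysM-cKO library or R40D3 LysM-cKO replicate 2, the count was 0. The median was 0.128, against 0.00944 over all genes, with 41 of 48 above 0 (85.4%, against 51.2%), and R40D3 libraries were above R0D3 for 26 genes (54.2%, against 27.3%) and below for 4 (8.33%, against 22.5%).

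Nolc1 was at 33.4 and 38.6 CPM in R0D3 LysM-cKO and at 46.3 and 53.5 CPM in R40D3 LysM-cKO (0.47, SE 0.11, edgeR adjusted p 0.0403). Nop10 was at 27.0 and 29.3 CPM and then 38.5 and 50.03 CPM (0.65, SE 0.16, edgeR adjusted p 0.0429), again with R40D3 replicates that spread. Gnl3 was at 26.8 and 23.5 CPM and then 33.6 and 33.1 CPM (0.41, SE 0.10, edgeR adjusted p 0.0474). Next came Wdr75, at 17.3 and 19.5 CPM and then 24.2 and 24.5 CPM (0.41, SE 0.12, edgeR adjusted p 0.0694), and Rrp12, at 11.4 and 13.6 CPM and then 16.1 and 21.8 CPM (0.60, SE 0.18, edgeR adjusted p 0.0811), which both passed with the block. Of the other GTP-binding factors Gtpbp4 was at 38.6 and 41.0 CPM and then 48.1 CPM in both libraries (0.27, SE 0.09, edgeR adjusted p 0.101, and 0.0454 with the block). Gnl2 was at 29.8 and 26.9 CPM and then 31.2 and 30.7 CPM (0.13, SE 0.11, edgeR adjusted p 0.535). Bms1 was lower at R40D3, with 53.9 and 55.8 CPM and then 49.7 and 50.03 CPM (−0.14, SE 0.08, edgeR adjusted p 0.349), and Lsg1 was at 23.1 and 22.7 CPM and then 24.4 and 21.4 CPM, with overlap (0.00, SE 0.11, edgeR adjusted p 0.993). Rrp1b was again the lowest, at 12.7 and 15.5 CPM and then 11.6 and 9.86 CPM (−0.39, SE 0.21, edgeR adjusted p 0.313).

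**Figure D5:**
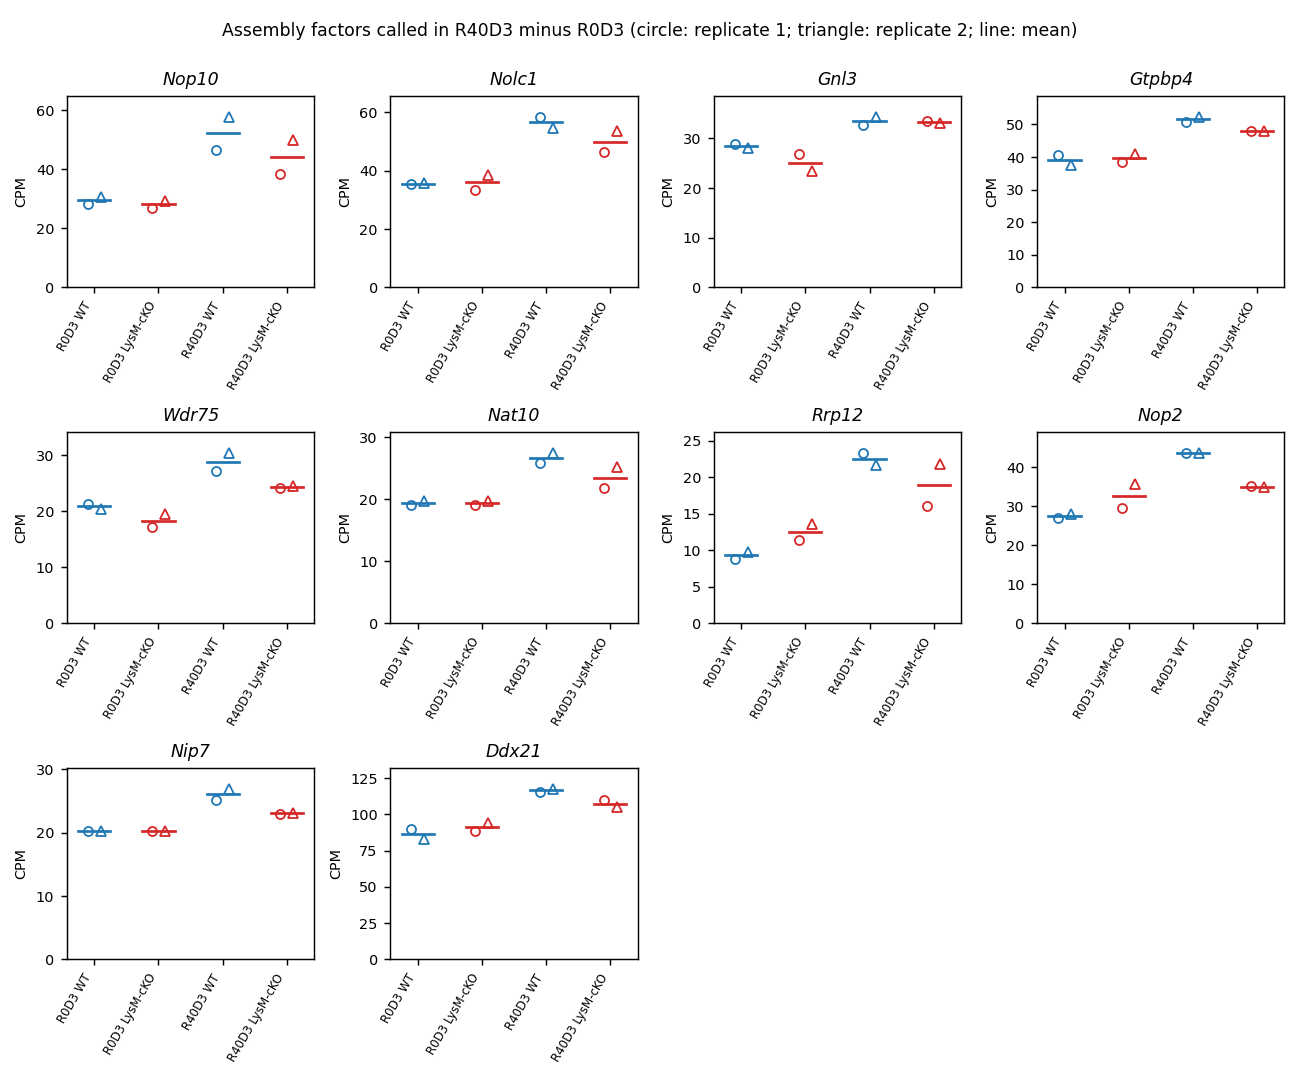
CPM (vertical axes, from 0) of the 10 assembly factors called in R40D3 minus R0D3 in either genotype, in the 8 culture libraries by group (horizontal axes). Circles are replicate 1, triangles replicate 2, lines the mean of 2 libraries, blue WT and red LysM-cKO. Nop2 is at 43.5 and 43.7 CPM in R40D3 WT and at 34.8 to 35.6 CPM in 3 of the 4 LysM-cKO libraries.

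Beside these changes, of 99 further assembly factors 8 were called higher and 0 lower in WT (median 0.0677) and 1 higher in LysM-cKO (median 0.069), and of 11 RNA polymerase I genes 2 and 0 were called higher. Cytosolic ribosomal protein genes had 0 calls in WT with a median of 0.0114, and 1 call in LysM-cKO with a median of 0.156. Cell division genes were all 20 below 0 in both genotypes, with medians of −0.532 and −0.758 and 1 called lower in each. All 8 osteoclast markers were called higher in both genotypes, with medians of 9.72 and 8.97, and 2 of 8 macrophage markers were called lower in each. The part of cell type in the assembly factor differences between culture titles was not tested.

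Whether the difference between R40D3 and R0D3 depends on genotype was tested as an interaction, LysM-cKO minus WT. No assembly factor was called (0.0% of all genes were) in edgeR, with the block or in DESeq2, and the median was −0.0606, against −0.0167 over all genes. At an unadjusted p under 0.05 there were 0 higher and 2 lower, where 0.82% and 0.948% of all genes were. Nop2 had an interaction of −0.56 (SE 0.15, edgeR p 0.00709, adjusted p 1.00). Its 4 WT values rose from 27.0 and 28.1 to 43.5 and 43.7 CPM between culture titles, whereas its LysM-cKO values were 29.7 and 35.6 CPM and then 35.1 and 34.8 CPM. Rrp12 had −0.68 (SE 0.25, edgeR p 0.0292, adjusted p 1.00), with higher R0D3 values in LysM-cKO and higher R40D3 values in WT in the mean. Bms1 (−0.26, SE 0.11), Utp20 (−0.30, SE 0.16) and Pno1 (−0.25, SE 0.14) had the next smallest p, and Npm1 the highest estimate (0.24, SE 0.16), each with an edgeR adjusted p of 1.00. Utp20 was at 40.3 and 36.3 CPM in R0D3 WT, 46.7 and 42.8 CPM in R40D3 WT, 43.3 and 52.1 CPM in R0D3 LysM-cKO and 46.1 and 44.5 CPM in R40D3 LysM-cKO. Pno1, which places the nuclease Nob1, was at 33.6 and 32.4, 38.8 and 40.1, 38.6 and 33.5, and 36.6 and 35.9 CPM in the same order. For Npm1 the values were 267 and 275, 262 and 240, 247 and 213, and 270 and 233 CPM, which overlap between the culture titles in LysM-cKO. The GTP-binding factors had interactions between −0.26 (Bms1) and 0.17 (Gnl3, SE 0.14), with 4 of 5 below 0.

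The knockout estimates in the forelimb and the cultures were also set side by side, for the 13244 genes tested in both. A value above 0 in the forelimb and below 0 at R40D3 was found for 37 of the 48 assembly factors (77.1%, against 30.7% of all genes). Taken singly, 45 were above 0 in the forelimb and 39 below 0 at R40D3. Above 0 in the forelimb and below 0 at R0D3 there were 25 (52.1%, against 27.4%), where 45 of the 48 were above 0 in the forelimb alone and 27 below 0 at R0D3 alone. Libraries without overlap, higher in Prx-cKO forelimb and lower in LysM-cKO, were found for 18 genes at R40D3 (37.5%, against 6.27% of all genes) and for 12 of 48 at R0D3 (against 4.88%). Taken singly, 37 genes were higher without overlap in the forelimb, 21 lower at R40D3 and 15 lower at R0D3. Whether the joint counts exceed what these single counts would give was not tested. The forelimb and culture libraries are separate, their counts were normalised separately, and no test compared the tissues.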

How the data were processed

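RNA was sequenced from 4 forelimb and 8 culture libraries. The files deposited by the authors hold unnormalised read counts for each Ensembl identifier, in 1 forelimb table and in 2 culture tables split by replicate number. Per the submitters' processing notes the tools were FastQC 0.11.2, Trimmomatic 0.36, HISAT2 2.1.0 and DESeq2 1.12.4, with the GRCm38 build; the counting tool and use of strand are not given in the sources used here. Symbols came from GENCODE M21, which matched 99.6% of forelimb and 99.5% of culture identifiers.

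The deposited counts were filtered with filterByExpr, scaled by TMM and fitted over all genes with edgeR 4.0.16 (quasi-likelihood, R 4.3.3), two-sided, with Benjamini-Hochberg adjustment over all genes tested and genes called where the adjusted p was under 0.05. Forelimb (4 libraries) and cultures (8 libraries) were fitted separately. Levels are CPM on TMM-scaled totals. The fit was tested on simulated counts. Alternatives were DESeq2 1.42.0, DESeq2 size factors, library size alone, no filter, the legacy fit, the 4 compared libraries alone, a replicate block and leaving out each library. Library totals are in the report, and over all genes replicates differed by more than sampling noise (the lowest chi-square per degree of freedom was 11.5).

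The members, their roles and all gene lists were chosen with earlier results of these data known. Values per library are given for the GTP-binding factors, and in each comparison for the 5 genes with the smallest p and those with the highest and lowest estimate. Lists are described by counts and medians, with no test. Of the RNA polymerase I list, Polr1f, Polr1g and Polr1h found no identifier.

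To check pairing by replicate number, deviations of libraries from their group means were correlated. For the cultures r lay between 0.343 and 0.609 over all genes in 6 of 6 pairs of groups. The numbers were therefore taken to pair the cultures, as a feature of the data that the labels do not state. Over the 48 genes r was weaker, between 0.0508 and 0.474, so the block is less well founded for them. The forelimb has a single pair (r = 0.261, and 0.726 over the 48 genes), which cannot settle the point, and its numbers were not used as pairing.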

Additional observations from a re-analysis of the deposited data

Results flagged for a closer look

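For 18 of the 48 assembly factors both Prx-cKO forelimb libraries lay above both WT libraries while both R40D3 LysM-cKO libraries lay below both WT libraries (37.5%, against 6.27% of all genes tested in both tissues). The difference between the 2 knockout effects on the log2 scale, forelimb minus R40D3, was 0.95 for Nop2, 0.89 for Rcl1, 0.76 for Utp4, 0.72 for Nat10, 0.68 for Nip7, 0.64 for Nolc1, 0.62 for Gar1, 0.61 for Wdr12 and 0.60 for Ddx21. It was 0.59 for Nop16, 0.53 for Ltv1, 0.53 for Wdr75, 0.43 for Dkc1, 0.41 for Utp18, 0.39 for Pno1, 0.38 for Nop14, 0.34 for Gtpbp4 and 0.32 for Gnl2. Against R0D3 the same pattern held for 12 of 48 genes (against 4.88%), with differences of 1.08 for Rcl1, 0.89 for Imp3, 0.82 for Nop16, 0.76 for Nob1, 0.68 for Npm1, 0.68 for Wdr12, 0.68 for Utp4, 0.65 for Ddx18, 0.56 for Gnl3, 0.47 for Wdr75, 0.45 for Utp18 and 0.36 for Utp3. Taken singly, 37 of the 48 genes were higher without overlap in the forelimb, 21 lower at R40D3 and 15 lower at R0D3. Whether the joint counts exceed what these single counts would give was not tested. The genes listed were picked for being higher in the forelimb and lower in the cultures. Each difference is therefore above 0 by that choice, which adds no support. The difference between tissues was not tested for any of the genes listed. The knockout effect passed the adjusted threshold for none of these genes in either tissue.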

How the results depend on the processing

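Single-gene tests rest on 2 libraries per group. In the cultures counting error is a part of the spread, and 19 to 26 of the 48 genes differed between replicates by less than 1 counting SD. The mean chi-square of 3.62 to 4.68 shows that replicates also differed by more than counting error. Among 756 recomputed values of named genes 669 kept their direction and side of the threshold, 60 lost and 5 gained a call and 22 changed sign, all in 9 values near 0 or with replicates far apart. No knockout comparison gave a call among the 48 genes under any alternative, with the replicate block included; in the forelimb, where a single pair of groups cannot settle whether the numbers pair the samples, the block gave 0 calls and a median of 0.367.

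Library size alone moved the forelimb median from 0.366 to 0.269 (that of all genes to −0.129) and the R40D3 knockout median to −0.0792. Leaving out 1 library at a time gave medians of 0.315 to 0.378 in the forelimb, −0.134 to −0.054 for the R40D3 and −0.0881 to 0.0215 for the R0D3 knockout. It gave medians of 0.141 to 0.252 for WT and 0.0934 to 0.183 for LysM-cKO R40D3 minus R0D3, and −0.105 to −0.00122 for the interaction. For WT R40D3 minus R0D3 the 9 calls became 5 without the filter, which tests more genes, 14 with the replicate block, 6 in DESeq2 (5 of them among the 9) and 1 to 3 without a library. For LysM-cKO the 3 calls became 1 with DESeq2 size factors, 1 in DESeq2, 0 without the filter, 0 with the 4 compared libraries alone, 9 with the replicate block and 0 to 3 without a library.

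Signs changed as follows when libraries were left out. In the forelimb Bms1 ranged from −0.0562 to 0.318, Lsg1 from −0.0395 to 0.795 and Ddx10 from −0.265 to 0.0862. In the R40D3 knockout comparison Gnl3 ranged from −0.0503 to 0.0424, and was 0.0321 with library size alone and 0.00365 without the filter. In the R0D3 knockout comparison Gnl2 ranged from −0.115 to 0.0569 (0.00409 with library size alone) and Gtpbp4 from −0.0329 to 0.0858. For R40D3 minus R0D3 Lsg1 ranged from −0.0279 to 0.0369 in WT (−0.00644 without the filter) and from −0.0951 to 0.0536 in LysM-cKO (−0.0163 with DESeq2 size factors, −0.0149 without the filter, −0.0158 in DESeq2). Its interaction ranged from −0.0964 to 0.0522. Apart from the fits with fewer genes or libraries, the cause of these shifts was not tested.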
